A study of Mus musculus with 6 samples.

Results

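The genes described here are the upstream arm of the integrated stress response in mouse brain: the 4 kinases that phosphorylate the translation initiation factor eIF2, the subunit they phosphorylate, the 2 regulatory subunits that direct its dephosphorylation, and 3 transcription factors made when eIF2 is phosphorylated. They were taken by symbol from GENCODE M21 and comprise 10 symbols, carried by 11 of the 55450 Ensembl genes in the tables, because Ddit3 names 2 of them. The data are 6 long RNA libraries from total mouse brain, 3 from wild-type mice (WT) and 3 from mice labelled TRMT1L KO, which lack TRMT1L, a relative of the tRNA methyltransferase TRMT1. The study's design compares the 2 genotypes, described as biological triplicates. The kind of knockout allele, the strain, the sex and the age are not given in the sources used here, and no treatment is named for either group.

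Phosphorylation of the alpha subunit of eIF2 slows the start of translation on most mRNAs. A small set of mRNAs with short upstream open reading frames in the 5′ leader, Atf4 first among them, is then translated better, and ATF4 switches on genes for amino acid supply and stress recovery. The kinases respond to different signals: GCN2 to uncharged tRNA, PERK to misfolded protein in the endoplasmic reticulum, PKR to double-stranded RNA and HRI to low haem. RNA sequencing reads the amount of these mRNAs, not the phosphorylation of eIF2 or the translation of Atf4.

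The libraries held between 31201119 and 36145961 reads counted in genes, and 21237 genes had enough reads to be tested. Trmt1l itself was at 35.1, 33 and 35.2 CPM (read counts scaled to library size) in WT libraries 1 to 3 and at 2.68, 3 and 2.93 CPM in KO libraries 1 to 3, so each label was borne out by its own library. The 7 neuronal markers summed to between 4190 and 4459 CPM in the 6 libraries, while 4 markers of liver and muscle summed to at most 4.04 CPM. Reads that met no gene's exons on the counted strand, reads in introns included, made up 50.3% to 52.2% of mapped reads in WT. In KO they made up 48.6% to 49.8%, so the 2 groups did not overlap in that measure. Reads mapped to several places were 4.61% to 5.16% in WT and 5.25% to 5.6% in KO, again without overlap. The groups were also apart in the summed level of 6 choroid plexus markers, 311 to 367 CPM in WT and 371 to 443 CPM in KO. All 6 had a higher KO mean, 2 of them with an unadjusted p-value under 0.05. For 2 of the 6, every KO library lay above every WT library, beside 7.46% of all genes tested. All 6 oligodendrocyte markers had a lower KO mean, 1 of them with an unadjusted p-value under 0.05, and summed to 4074 to 4498 CPM in WT and to 4197, 3854 and 3495 CPM in KO libraries 1 to 3. Immediate early genes summed to 266 to 317 CPM in WT and to 425, 372 and 191 CPM in KO libraries 1 to 3, and 2 of 8 tested were higher in KO at that criterion. All 5 blood markers had a higher KO mean, 1 of them at that criterion, and they summed to 109 to 149 CPM in WT and to 247, 98.3 and 181 CPM in KO libraries 1 to 3. Over all genes tested, 4.54% were higher and 3.38% lower in KO at that criterion. The part of any of these read or marker differences in the members' differences was not tested. As the tissue is whole brain, fewer cells of a type and less RNA per cell cannot be told apart for any gene below. Across all genes tested, 2 passed an adjusted p-value of 0.05 (edgeR's quasi-likelihood F test, Benjamini-Hochberg; 0.00942% of 21237), both lower in KO, and neither was one of the 10 members.

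Of the 10 members, the 3 transcription factors and the inducible phosphatase subunit Ppp1r15a had the largest increases in the KO mean. Log2 fold changes of KO over WT were 0.66 for Atf5, 0.33 for Ddit3, 0.23 for Atf4 and 0.20 for Ppp1r15a. They lay between -0.031 and 0.055 for Eif2ak1, Eif2ak3, Eif2ak4, Eif2s1 and Ppp1r15b, and that of Eif2ak2 was -0.16 with a wide spread between libraries. At an unadjusted p-value under 0.05, 3 members were higher in KO (Atf4, Atf5 and Ddit3) and 0 were lower. Without KO library 3, 1 was higher (Atf4) and 1 lower (Eif2ak2), beside 4.42% and 3.58% of all genes in that fit. With all 6 libraries the same criterion was met by 7.92% of all genes tested, 4.54% upward and 3.38% downward. Scaled by total counts, the shares were 3.8% upward and 4.13% downward, so the excess upward over all genes depends on the scaling. For 3 members (Atf4, Ppp1r15a and Eif2ak3) every KO library lay above every WT library, an order found for 7.46% of all genes tested. For 0 members every KO library lay below every WT library, against 6.97% of all genes. The median log2 fold change over the 10 members was 0.052, and over all genes tested it was 0.00013. All 10 passed the filter on low counts, and the smallest adjusted p-value among them was 0.576 in edgeR's test.

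**Figure D1:**
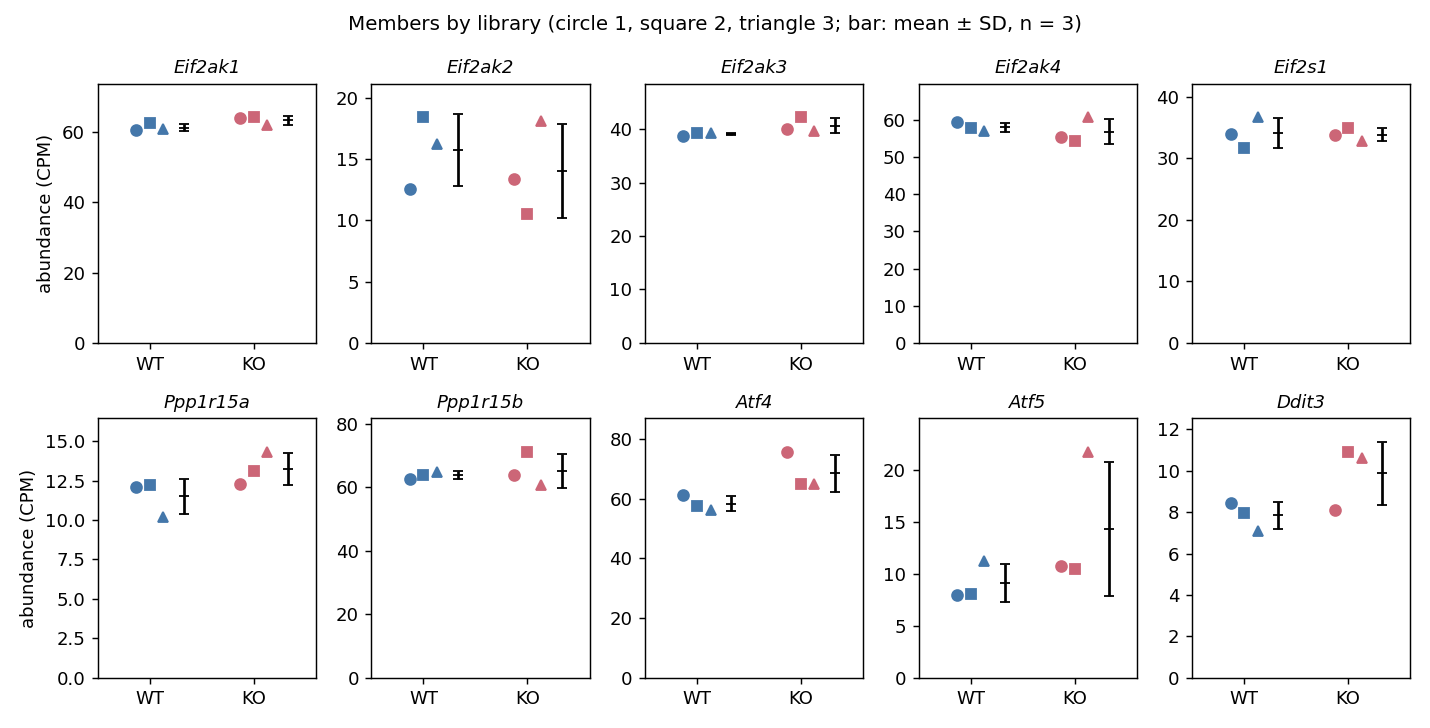
Abundance in CPM (vertical axes, from 0) of the 10 members in each WT and KO library (horizontal axis), with the mean ± SD beside each group (n = 3). Atf4 lies higher in all 3 KO libraries, while the high KO mean of Atf5 comes from KO library 3 at 21.7 CPM.

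The 3 sequences below are shown because each holds a motif of a stress or interferon response near the start of a member: Ppp1r15a, Ddit3 and Eif2ak2. Promoters were taken from RefSeq (GRCm38.p6), 250 bases before to 50 after each start, and all members but Ppp1r15b had an entry. The searches, on both strands, were for the cyclic AMP response element TGACGTCA, the amino acid response element core TGATGNAA, the interferon-stimulated response element core (GAAA, any 2 bases, GAAA) and a sequence like the endoplasmic reticulum stress element (CCAAT, any 10 bases, CACG). The first and the last were set after the sequences had been seen. They are held by 1.79%, 3.97%, 3.44% and 0.265% of all 32851 promoters in the table. In the lines below, capitals mark the match, read 5′ to 3′ on the strand of the gene. The Ppp1r15a window is chr7:45526269-45526340 on the minus strand and holds TGACGTCA starting 12 bases before the start. The Ddit3 window is chr10:127290642-127290780 on the plus strand and holds the stress element on the opposite strand. The Eif2ak2 window is chr17:78882535-78882564 on the minus strand and holds the interferon element starting 18 bases downstream of the start.
Ppp1r15a: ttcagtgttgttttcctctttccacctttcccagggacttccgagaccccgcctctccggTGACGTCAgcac
Ddit3: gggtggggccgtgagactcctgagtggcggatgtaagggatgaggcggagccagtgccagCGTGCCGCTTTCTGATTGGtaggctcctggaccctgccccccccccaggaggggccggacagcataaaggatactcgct
Eif2ak2: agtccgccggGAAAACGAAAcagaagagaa
The interferon core also matched once each upstream of the RefSeq starts of Eif2s1 and Ppp1r15a. The Eif2s1 match lies inside the GENCODE gene, which begins further upstream, at 78861819. The amino acid response core matched in none of the members' windows. A match is a run of letters, not a shown binding site.

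Atf4 encodes the transcription factor at the centre of the response (ENSMUSG00000042406.8, GRCm38 chromosome 15 from 80255184 to 80257541, plus strand). Its abundance was 61.2, 57.7 and 56.1 CPM in WT libraries 1 to 3 and 75.6, 65.1 and 64.9 CPM in KO libraries 1 to 3. The lowest KO library was above the highest WT library, and KO library 1 was the highest of all 6. WT averaged 58.3 ± 2.59 CPM and KO 68.5 ± 6.11 CPM (SD, n = 3), a log2 fold change of 0.23 (SE 0.0665, 95% interval 0.086 to 0.38). The unadjusted p-value was 0.00478 and the adjusted one 0.576 (edgeR), so the difference did not pass over all genes. The increase is 17.4% of the WT level. Without KO library 1 the log2 fold change was 0.15, a move of over 1.5 times, and every KO library was still above every WT library. With no filter on low counts the adjusted p-value was 0.0147, in a fit that called 298 genes instead of 2.

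Atf5 encodes a relative of ATF4 that is also translated through upstream reading frames and is known for its part in the mitochondrial stress response (ENSMUSG00000038539.15, chromosome 7 from 44812256 to 44816658, minus strand). It was at 8, 8.1 and 11.2 CPM in the WT libraries and at 10.7, 10.5 and 21.7 CPM in the KO libraries. KO libraries 1 and 2 lay below WT library 3, and KO library 3 was far above the other 5. WT averaged 9.08 ± 1.79 CPM and KO 14.3 ± 6.37 CPM (SD, n = 3), which gave 0.66 as the log2 fold change (SE 0.246, 95% interval 0.12 to 1.20; edgeR unadjusted p = 0.0209, adjusted p = 0.589). Without KO library 3 the log2 fold change was 0.23 and the unadjusted p-value 0.13. Without WT library 1 or WT library 2 that p-value was 0.0751 or 0.0757, and in the DESeq2 Wald test on all 6 libraries it was 0.0884. With no filter on low counts the adjusted p-value was 5.76e-08. The size of the Atf5 difference therefore rests on 1 library.

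Ddit3 encodes CHOP, a transcription factor tied to cell death under lasting stress (ENSMUSG00000025408.15, chromosome 10 from 127290774 to 127296288, plus strand). Its counts were 307, 250 and 234 for WT and 282, 367 and 384 for KO, that is 8.44, 7.97 and 7.11 CPM against 8.12, 10.9 and 10.6 CPM. KO library 1 lay among the WT libraries and the other KO libraries lay above them. The log2 fold change was 0.33 (SE 0.125, 95% interval 0.06 to 0.61; edgeR unadjusted p = 0.0211, adjusted p = 0.589), with means of 7.84 ± 0.673 CPM for WT and 9.88 ± 1.54 CPM for KO (SD, n = 3). The unadjusted p-value was 0.084 without WT library 3, 0.0734 without KO library 2 and 0.0663 without KO library 3. At these depths counting error alone is 5.74% of a library's value.

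The second Ensembl gene named Ddit3 (ENSMUSG00000116429.1) had 0 counts in all 6 libraries. It is a model of 105 bases in 2 exons, starting with ATG, and all 105 bases lie in the 5′ untranslated region of the main Ddit3 transcript. Its first 30 bases are shown because reads touching it, on the strand of the gene, fall in 2 genes at once and are counted for neither; capitals mark the start codon.
Ddit3 short model: ATGttgaagatgagcgggtggcagcgacag
The 0 is thus a property of the counting and not a measured absence, and the counts of Ddit3 leave out the part of its leader that the short model covers, in WT and KO alike.

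Upstream start codons were counted in the annotated 5′ leader of 1 principal coding transcript per gene, since translation through them is what marks these mRNAs. Leaders held 7 ATG triplets in Ppp1r15a, 3 each in Atf4, Ppp1r15b and Eif2ak3, 2 each in Atf5, Ddit3 and Eif2s1, 1 in Eif2ak2 and 0 in Eif2ak1 and Eif2ak4. Over 20603 genes with a 5′ leader the median was 1, and 33.5% had 2 or more. The leaders of Ppp1r15a, Ppp1r15b and Atf4 were 764, 604 and 594 bases long, against a median of 171 bases. These are counts of triplets in any frame, not of translated frames.

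The phosphatase subunits bring protein phosphatase 1 to eIF2. Ppp1r15a (GADD34, ENSMUSG00000040435.12, chromosome 7 from 45522916 to 45526268, minus strand) is the stress-induced form, and Ppp1r15b (CReP, ENSMUSG00000046062.5, chromosome 1 from 133131143 to 133139783, plus strand) is the constitutive one. Ppp1r15a was at 12.1, 12.2 and 10.2 CPM in the WT libraries and at 12.3, 13.1 and 14.3 CPM in the KO libraries. The groups did not overlap, but KO library 1 and WT library 2 lay close together. The log2 fold change was 0.20 (SE 0.097, 95% interval -0.009 to 0.42; edgeR unadjusted p = 0.0589, adjusted p = 0.634). Without WT library 3, the lowest, it was 0.12. The unadjusted p-value was under 0.05 in 4 of the 16 alternatives: without WT library 2 (0.0494), without KO library 1 (0.0413), with counts of both strands (0.048) and with no filter on low counts (0.0345). Ppp1r15b was at 62.5, 63.8 and 65 CPM in the WT libraries and at 63.9, 71.1 and 60.7 CPM in the KO libraries, so the KO libraries lay on both sides of the WT libraries. Its log2 fold change was 0.033 (SE 0.0611, 95% interval -0.10 to 0.17; edgeR adjusted p = 0.92).

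Among the kinases, Eif2ak4 encodes GCN2, the sensor of uncharged tRNA (ENSMUSG00000005102.13, chromosome 2 from 118388618 to 118475234, plus strand). It was at 59.3, 57.7 and 56.9 CPM in the WT libraries and at 55.3, 54.3 and 60.6 CPM in the KO libraries. The KO libraries lay on both sides of the WT libraries, and the log2 fold change was -0.031 (SE 0.0557; adjusted p = 0.914 in edgeR). The 95% interval of the fold ran from 0.899 to 1.06. Leaving out 1 library, the log2 fold change ranged from -0.082 without KO library 3, where both remaining KO libraries lay below the WT libraries, to -0.0013 without KO library 2.

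Eif2ak3 encodes PERK, the kinase of the endoplasmic reticulum (ENSMUSG00000031668.14, chromosome 6 from 70844515 to 70905245, plus strand). It was at 38.8, 39.2 and 39.3 CPM in the WT libraries and at 40.1, 42.2 and 39.6 CPM in the KO libraries. The groups did not overlap, although the gap between WT library 3 and KO library 3 was smaller than the counting error of 2.71% per library. The log2 fold change was 0.055 (SE 0.0524, 95% interval -0.059 to 0.17; edgeR adjusted p = 0.819), or 0.028 without KO library 2. Eif2ak1, which encodes HRI (ENSMUSG00000029613.15, chromosome 5 from 143817788 to 143904251, plus strand), was at 60.4, 62.4 and 60.9 CPM in the WT libraries and at 63.9, 64.1 and 61.9 CPM in the KO libraries. Only KO library 3 fell within the WT range, and the log2 fold change was 0.048 (SE 0.0473; edgeR adjusted p = 0.825).

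Eif2s1, the alpha subunit of eIF2 that all 4 kinases phosphorylate (ENSMUSG00000021116.10, chromosome 12 from 78861819 to 78887010, plus strand), was at 33.9, 31.7 and 36.6 CPM in the WT libraries. In the KO libraries it was at 33.7, 34.9 and 32.8 CPM, all within the WT range. The log2 fold change was -0.011 (SE 0.0642; edgeR adjusted p = 0.981), and the 95% interval of the fold ran from 0.9 to 1.09.

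Eif2ak2 encodes PKR, which binds double-stranded RNA and whose own gene is induced by interferon (ENSMUSG00000024079.4, chromosome 17 from 78852564 to 78882573, minus strand). It varied more than the other kinases in both groups, at 12.6, 18.4 and 16.2 CPM in the WT libraries and at 13.4, 10.5 and 18.1 CPM in the KO libraries. The SD was 18.7% of the mean in WT and 27.7% in KO, against a counting error of 4.44% per library. The SDs of Eif2ak1, Eif2ak3 and Eif2ak4 were at most 2.13% of the mean in WT and 6% in KO. The log2 fold change was -0.16 (SE 0.178, 95% interval -0.55 to 0.23; edgeR adjusted p = 0.846). It was 0.0099 without KO library 2 and -0.39 without KO library 3.

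The libraries in which Eif2ak2 was high were those in which other interferon-induced genes were high. The summed level of 17 such genes was 155, 249 and 171 CPM in the WT libraries and 153, 146 and 232 CPM in the KO libraries. WT library 2 and KO library 3 were the highest in both measures and KO library 2 the lowest. The summed level of 6 microglia markers, 188, 232 and 210 CPM in WT and 184, 180 and 216 CPM in KO, had the same 2 libraries at the top and the same one at the bottom, and none of these markers was at 0. Between genotypes, 1 of the 6 was lower in KO at an unadjusted p-value under 0.05, beside 3.38% of all genes tested. The part of microglia in the level of Eif2ak2 was not tested. Between genotypes, 0 of the 17 interferon-induced genes had an unadjusted p-value under 0.05, beside 7.92% of all genes tested, and the list's median log2 fold change was -0.12. Oas1a, an interferon-induced sensor of double-stranded RNA, had the smallest p-value and a value of the other sign (0.49, SE 0.343; edgeR adjusted p = 0.752). Without KO library 3 the median was -0.44 and 8 of the 17 were lower at that criterion, beside 3.58% of all genes in that fit. Without WT library 2 the median was 0.17 and 1 was higher, beside 3.46% of all genes. Without WT library 1 it was -0.23 and 1 was lower, beside 2.96% of all genes. The median was -0.043 without KO library 1 and 0.007 without KO library 2. With no filter on low counts 6 were lower and 1 higher, beside 2.59% and 4.14% of all genes in that fit.

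**Figure D2:**
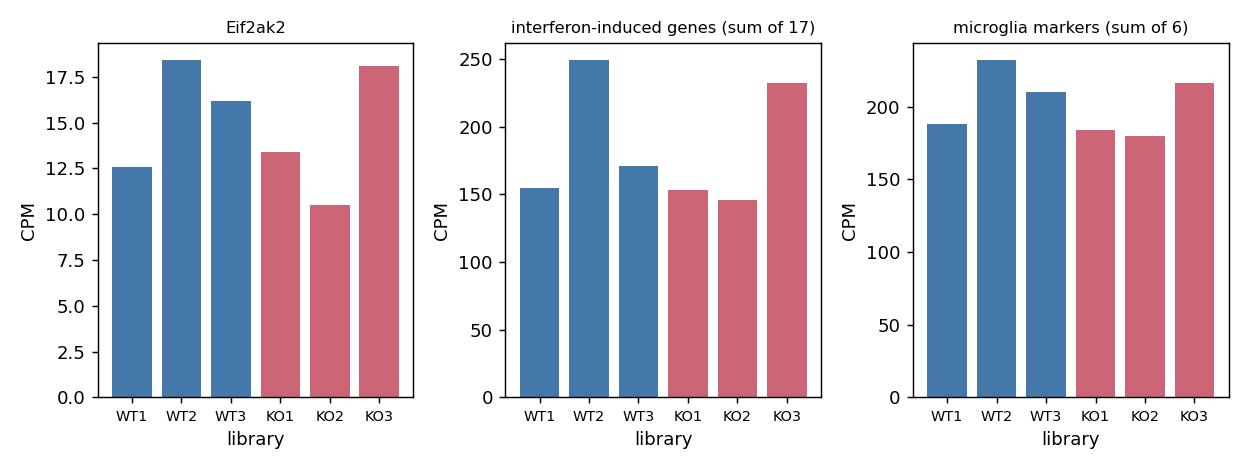
Bars give Eif2ak2, the summed level of 17 interferon-induced genes and the summed level of 6 microglia markers (vertical axes, CPM from 0) in each library (horizontal axes; WT blue, KO red). WT library 2 and KO library 3 are the highest and KO library 2 the lowest in all 3 panels.

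Levels were compared between members per kilobase, as CPM divided by the mean length of the complete coding transcripts. Atf4 was the highest, with a mean of 36.8 CPM per kb over the 6 libraries (32.5 to 43.8). Eif2ak3, Eif2ak1 and Eif2ak4 followed at 14.7, 14.4 and 13.7 CPM per kb, with ranges that overlapped from each to the next. Ppp1r15b (11.5) came next, apart from Eif2ak4 above it and Eif2s1 below it, although the wider ranges of Ddit3 and Atf5 overlapped its own. Eif2s1 (9.96), Ddit3 (9.96) and Atf5 (8.46) overlapped in turn. Ppp1r15a (4.82) and Eif2ak2 (3.44) were the lowest and overlapped. The order in the middle depends on the length used: with the union of all exons, Ppp1r15b (11.5 CPM per kb) came second and Eif2ak3 (6.61) fell to sixth place, while Atf4 (26.9) stayed highest and Eif2ak2 (2.9) lowest.

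Of the mRNA of the 4 kinases, per kilobase, Eif2ak1 made up 30.8% ± 0.0575 in WT and 31.6% ± 1.29 in KO, Eif2ak3 31.2% ± 0.419 and 32.2% ± 1.65, Eif2ak4 30.1% ± 1.02 and 29.2% ± 1.1, and Eif2ak2 7.89% ± 1.35 and 6.97% ± 1.78 (SD, n = 3). The differences lay between -0.926 and 0.996 percentage points. Without KO library 3 that of Eif2ak2 was -1.86, that of Eif2ak3 1.81, that of Eif2ak1 1.57 and that of Eif2ak4 -1.52, and without KO library 2 they were -0.093, 0.16, 0.414 and -0.481. With the union of exons as length, the WT shares were 38.4% for Eif2ak1, 23.1% for Eif2ak3, 27.7% for Eif2ak4 and 10.9% for Eif2ak2, and the differences lay between -1.25 and 1.17 percentage points. With counts of both strands, the WT shares were 27.1% for Eif2ak1, 28.5% for Eif2ak3, 35.2% for Eif2ak4 and 9.19% for Eif2ak2. The order of the first 3 thus depends on the length and the counts used. With either length and all 6 libraries, the exact permutation tests, two-sided, gave p between 0.4 and 0.6, or 0.6 for each when adjusted over the 4 kinases. The smallest p-value that 3 against 3 libraries allow is 0.1.

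**Figure D3:**
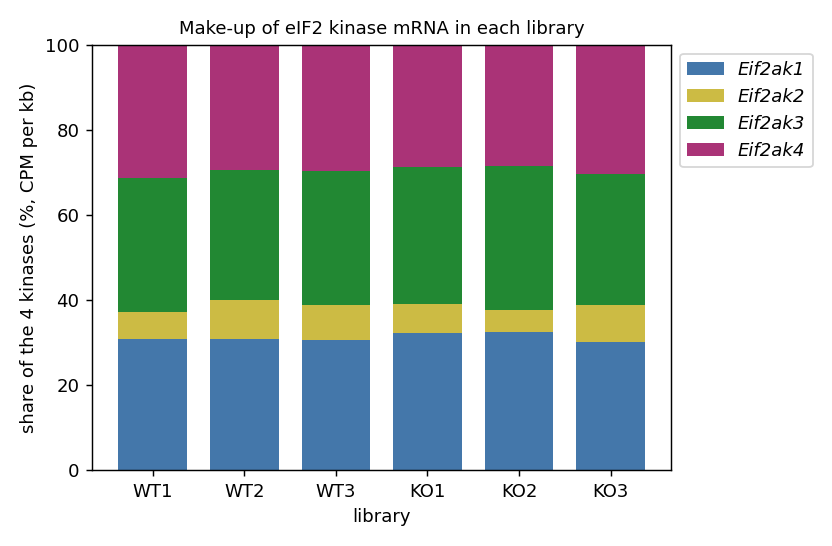
Share of each kinase in the summed mRNA level of the 4 kinases (vertical axis, % of CPM per kb) in each library (horizontal axis). With the mean length of complete coding transcripts and counts of the gene's own strand, Eif2ak1, Eif2ak3 and Eif2ak4 take similar parts in every library. Eif2ak2 takes between 5.3% and 9.09%.

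The rest of the pathway was read from 8 lists, written with earlier results of these data known, so their direction is not independent evidence. Of the ATF4 and CHOP target genes, 28 of 30 were tested. An unadjusted p-value under 0.05 was found for 15 of them in the direction of higher KO and for 1 (Vldlr) of lower KO, beside 4.54% and 3.38% of all genes, and 25 had a log2 fold change above 0, beside 50.1% of all genes tested. The median log2 fold change of the list was 0.25 and the smallest adjusted p-value 0.55 (edgeR). With GC content corrected, 12 were higher at that criterion and 0 lower, beside 2.09% and 2.12% of all genes in that fit. Over the fits that leave out 1 library, between 3.35% and 4.8% of all genes were higher at that criterion and between 2.04% and 3.78% lower. Over all 16 alternatives the shares of all genes were 1.9% to 4.86% higher and 1.85% to 4.13% lower, for comparison with the counts of every list. Without KO library 3, 8 were higher and 1 lower, and the median was 0.17. Without WT library 3, 8 were higher and 1 lower. In the fit without a filter on low counts, 10 passed the adjusted threshold, beside 298 of 37245 genes. With DESeq2 1 did, beside 26 of 21237 genes.

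The amino acid transporter Slc7a5 was at 62.1, 56.1 and 46.7 CPM in the WT libraries and at 70, 70.7 and 86.8 CPM in the KO libraries, with no overlap (log2 fold change 0.46, SE 0.103; edgeR adjusted p = 0.55). Nupr1, a small stress-induced chromatin protein, was at 2.72, 3.38 and 3.25 CPM in WT and at 3.91, 3.8 and 7.75 CPM in KO (0.73, SE 0.249). Eif4ebp1, an inhibitor of cap-dependent translation, was at 0.907, 1.53 and 1.22 CPM in WT and at 1.7, 1.22 and 3.18 CPM in KO (0.75, SE 0.326). In all 3 genes KO library 3 was the highest of the 6.

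KO library 3 also held the highest level of several target genes that were named after their values were seen. Trib3, a pseudokinase that restrains ATF4 and CHOP, had 103 counts there and between 15 and 28 in the other libraries. Gdf15, a secreted stress hormone, had 45 counts in KO library 3 and between 0 and 5 elsewhere, and Fgf21, another secreted stress hormone, had 10 and 0. Neither Gdf15 nor Fgf21 passed the filter on low counts. Not all targets followed this order. Asns was at 67.2 CPM in KO library 3 and 75.3 CPM in KO library 1. Ddit4 and Herpud1 were at 15.9 and 38.6 CPM in KO library 3, and at 25.3 and 57.2 CPM in KO library 2. Ero1l was lowest in KO library 3, at 44.3 CPM. The mean centred log2 level of the list was 0.35 in KO library 3, 0.044 and 0.021 in KO libraries 1 and 2, and between -0.15 and -0.12 in WT.

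KO library 2 stood apart in several genes of the other arms of the unfolded protein response, also named after their values were seen. Hspa5, the main chaperone of the endoplasmic reticulum and listed here as a regulator of PERK, was at 332 CPM there and between 143 and 179 CPM in the other 5 libraries. Xbp1, the transcription factor of the IRE1 arm, was at 89.8 CPM against 45.5 to 51 CPM. Sdf2l1, a chaperone cofactor, was at 9.03 CPM against 2.58 to 3.51 CPM. Other genes of these arms stood out little or not at all there. Ern1 was at 26.3 CPM against 22.7 to 25.7 CPM, and Atf6 at 107 CPM against 89.6 to 104 CPM. Edem1 was at 27.6 CPM against 26.5 to 30.5 CPM, and Dnajb9 at 32.8 CPM against 34.8 to 37.1 CPM in WT. Of the members, Ddit3, Eif2ak1, Eif2ak3 and Ppp1r15b were highest in KO library 2, while Eif2ak2 and Eif2ak4 were lowest there. For the 12 listed genes of these arms, 3 (Sdf2l1, Creld2 and Atf6b) had an unadjusted p-value under 0.05 and a higher KO mean, beside 4.54% of all genes, and the median log2 fold change was 0.15. Without KO library 2 the count was 0 and the median 0.00068. The count was also 0 without WT library 1 or WT library 2, 1 without WT library 3, with GC correction, with limma-voom and with DESeq2, and 6 without KO library 1 (with 1 lower), with a median of 0.24. It was 4 without KO library 3 and 4 with the replicate block. With no filter on low counts it was 7, beside 4.14% of all genes in that fit. Of the 12, 5 then passed the adjusted threshold, in a fit that called 298 of 37245 genes. The KO and WT libraries overlapped for each of the 12.

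**Figure D4:**
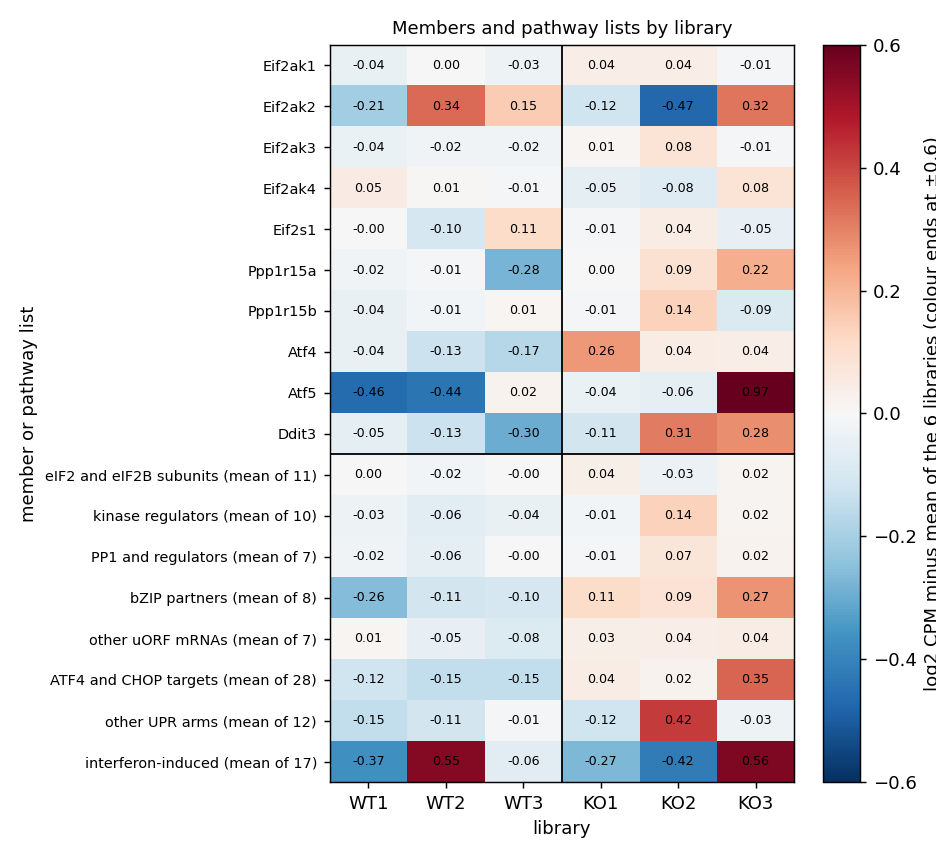
Log2 CPM of each member (upper rows) and mean over each pathway list (lower rows) minus the mean of the 6 libraries, by library (columns); red is higher and blue lower, with the colour scale capped and the value printed in each cell. Atf4 is highest in KO library 1 (0.26), the other arms of the unfolded protein response in KO library 2 (0.42), and Atf5 (0.97) and the target genes (0.35) in KO library 3.

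Of 11 other initiation factor genes, listed with eIF2 and its exchange factor eIF2B, 0 had an unadjusted p-value under 0.05, beside 7.92% of all genes. Their log2 fold changes lay between -0.093 and 0.13, and the smallest p-value was that of Eif2b2 (0.13, SE 0.0694, edgeR unadjusted p = 0.0783). Without KO library 3, 1 of the 11 was lower at that criterion, beside 3.58% of all genes in that fit. Of 10 regulators of the kinases, 7 had a log2 fold change above 0, with a median of 0.10 and values up to 0.46 (Hspa5). An unadjusted p-value under 0.05 was found for 2, both with higher KO, beside 4.54% of all genes: Gcn1l1, the ribosome-bound partner of GCN2, at 118 ± 4.4 CPM in WT and 127 ± 4.17 CPM in KO, and Fkbp8 at 151 ± 6.45 and 165 ± 3.12 CPM (SD, n = 3; adjusted p in edgeR = 0.616 and 0.585). That count was 0 without WT library 1 or WT library 3, 1 with GC correction, total counts or the replicate block, and 4 without KO library 1 or with no filter on low counts, where 1 passed the adjusted threshold. The median was 0.04 with GC correction and 0.054 without KO library 2. Of the 7 genes for protein phosphatase 1 and its other regulators, 0 had an unadjusted p-value under 0.05, beside 7.92% of all genes. Ppp1r10 was closest (0.15, SE 0.0705, unadjusted p = 0.0543 in edgeR). The count was 1, with higher KO, without KO library 1, with the replicate block, with DESeq2, with counts of both strands and with no filter on low counts.

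Of 8 bZIP transcription factors tested that pair or act with ATF4 and CHOP, 3 had an unadjusted p-value under 0.05, all with higher KO means, beside 4.54% of all genes. They were Cebpd, Jun and Atf3, the last with a mean under 1 CPM in both groups and named after its values were seen. The count was 1 without WT library 1 and 1 without KO library 3. The median log2 fold change of 0.20 was 0.35 without WT library 3 and 0.12 with GC correction. Cebpd was at 1.17 ± 0.0684 CPM in WT and 1.77 ± 0.409 CPM in KO, without overlap, and Jun at 36.1 ± 3.6 and 41.2 ± 2.58 CPM (SD, n = 3; edgeR adjusted p = 0.579 and 0.606). Jund, listed too and named only to account for the list, had at most 2 counts in a library and was not tested. Of 7 other mRNAs known or proposed to be translated through upstream frames, 2 had an unadjusted p-value under 0.05 and a higher KO mean, beside 4.54% of all genes: the tRNA synthetase Eprs (0.11, SE 0.0449) and the arginine transporter Slc7a1 (0.17, SE 0.0591), each with every KO library above every WT library and edgeR adjusted p = 0.6 and 0.579. The count was 1 without WT library 2, KO library 1 or KO library 3. The list's median of 0.11 was 0.049 without WT library 3 or KO library 2, and 0.072 with counts of both strands.

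The genes whose pattern over the 6 libraries was nearest to a member, by the root mean square difference of centred log2 CPM among 10164 protein-coding genes of at least 10 CPM, were also listed. For Atf4 they were Ntmt1, Agt and Uqcr10, at 0.0361 to 0.0438. For Ppp1r15a they were Oplah, Yif1b and Abhd4, at 0.022 to 0.0338, and for Ddit3 Mrpl21, Neb and 2310011J03Rik, at 0.0835 to 0.0876. For Atf5 they were Gfap, Nes and Slc6a13, at 0.171 to 0.232, a looser likeness over a range of 1.43 in Atf5 itself. Gfap, the intermediate filament of astrocytes, was at 115, 131 and 133 CPM in the WT libraries and at 140, 128 and 248 CPM in the KO libraries, so KO library 3 was highest as for Atf5. The 6 astrocyte markers, Gfap among them, summed to 4539 to 4767 CPM in WT and to 4596, 4571 and 4400 CPM in KO libraries 1 to 3, with none at 0. Of the 6, 2 were higher and 1 lower in KO at an unadjusted p-value under 0.05, beside 4.54% and 3.38% of all genes tested. The part of astrocytes in the level of Atf5 was not tested.

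Of the 4 members with the largest log2 fold changes, 3 had the highest GC content of the 10 over their transcripts: 61.3% in Atf5, 55.9% in Ppp1r15a and 55.1% in Atf4, followed by 52.5% in Eif2ak3 and 51.7% in Ddit3. Eif2s1 was the lowest at 41.9%. With a correction for each library's trend over GC content, the log2 fold changes were 0.54 for Atf5, 0.14 for Ppp1r15a, 0.18 for Atf4 and 0.31 for Ddit3. The groups then overlapped for Ppp1r15a and Eif2ak3, leaving Atf4 as the 1 member whose groups did not, beside 9.94% of all genes in either direction. The same 3 members had an unadjusted p-value under 0.05, beside 4.21% of all genes in that fit, and the adjusted p-value of each was 0.997 (edgeR).

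**Figure D5:**
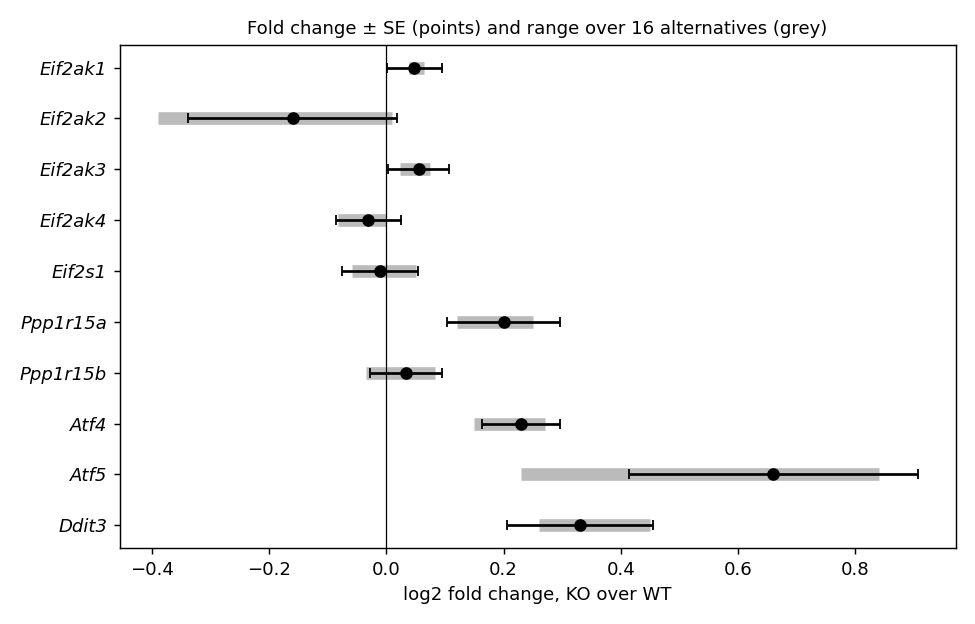
Log2 fold change of KO over WT (horizontal axis) for each member (vertical axis), with points and bars for the value ± SE and grey bars for the range over 16 alternative analyses. Atf5 spans 0.23 to 0.84 and Atf4 0.15 to 0.27, while the ranges of Eif2s1, Eif2ak2 and Ppp1r15b cross 0.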

How the data were processed

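For each library the authors deposited gene-level read counts, made with STAR 2.7.0f after cutadapt 1.9.1, per the submitters' processing notes. The genome build and annotation are not given in the sources used here. The 55450 gene IDs are those of GENCODE M21 (GRCm38), which gave symbols, positions and lengths. The counts for the strand that held 94.6% to 94.8% of stranded counts were used; the 4 rows that name no gene were left out. Reads in several places or several genes are not counted. Genes were filtered (filterByExpr), scaled (TMM) and tested in edgeR 4.0.16 (R 4.3.3) over all 6 libraries with genotype alone and Benjamini-Hochberg adjustment over all genes. SE is the log2 fold change divided by the square root of F, and 95% intervals use the test's degrees of freedom. GC correction used a lowess trend per library. DESeq2 1.42.0 and limma 3.58.1 were alternatives.

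The members and lists were chosen with earlier results of these data known. All members and Trmt1l are named; from each list, up to 3 genes higher and 3 lower with the largest change at an unadjusted p-value under 0.05 and at least 1 CPM, or else the gene of smallest p-value; and the 3 genes nearest in pattern to Atf4, Atf5, Ddit3 and Ppp1r15a. Further genes outside this rule were named after their values were seen. Counting error means the Poisson error at the mean count, and covers counting alone.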

Additional observations from a re-analysis of the deposited data

How the results depend on the processing

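Over 16 alternatives, the log2 fold changes of Atf4 (0.15 to 0.27), Atf5 (0.23 to 0.84), Ddit3 (0.26 to 0.45), Ppp1r15a (0.12 to 0.25), Eif2ak1, Eif2ak3 and Eif2ak4 kept their sign. Eif2s1 changed sign to 0.049 with GC correction, 0.05 with the replicate block and GC correction, 0.044 without WT library 3 and 0.011 without KO library 3 (-0.059 to 0.044 over the 6 fits that leave out 1 library). Leaving out 1 library, Eif2ak2 ranged from -0.39 to 0.0099 and Ppp1r15b from -0.034 to 0.083, both changing sign without KO library 2. Without a filter on low counts, Atf4 (0.24, edgeR adjusted p = 0.0147) and Atf5 (0.67, adjusted p = 5.76e-08) passed over all genes, in a fit that called 298 genes; over the other alternatives that gave a value their adjusted p-values were at most 1 and at least 0.117 and 0.401. The DESeq2 Wald test called 26 genes. It gave no adjusted p-value for Trmt1l or for Eif2ak2, Eif2ak3, Eif2s1, Ppp1r15a, Atf5 and Ddit3, and none of the other 4 members (Eif2ak1, Eif2ak4, Ppp1r15b and Atf4) passed, with Atf4 lowest at 0.117. With the replicate block 4 genes passed, and the block changed no call of a member; same-numbered libraries deviated together by correlations of only 0.0402, -0.0314 and -0.0581 across genes, which does not pair them. Leaving out 1 library, 2 to 5 genes passed in all, 2 to 4 members had an unadjusted p-value under 0.05 (5.5% to 8.58% of all genes did), and 3 to 5 members had separate groups (23.1% to 26.2% of all genes did, against 14.4% with all 6 libraries). With GC correction, alone or with the replicate block, 1 member did (9.94% of all genes). Each scaling moved the median of all genes by at most 0.01, to -0.0099 with total counts.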

Other observations

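Counts on the strand opposite to each member entered the report only where counts of both strands are named. For Ddit3 they numbered 175, 140 and 165 for WT and 209, 192 and 190 for KO, or 58.7% of its own counts, and each KO library was above each WT library (edgeR unadjusted p = 0.0619, adjusted p = 0.894). The gene Mars, a tRNA synthetase for methionine on that strand, overlaps the last 68 bases of the Ddit3 exons, and Mars itself was at 41, 43.4 and 39.9 CPM in WT and 45, 44.4 and 50.6 CPM in KO. The gene Gm4189, on the same strand as Mars, overlaps 13 bases of the Ddit3 exons. Which gene these opposite-strand reads came from was not tested. For the other members opposite-strand counts were at most 9.74% of the member's own.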
